A study of Homo sapiens with 12 samples.

Results

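The 90 histone genes described here are the symbols in the deposited count table that name a histone of a HIST1 to HIST4 cluster or an H1F, H2AF or H3F gene, with symbols of pseudogene form left out, of 26485 symbols in all. Of these, 73 were cluster genes and 16 were replacement variants, and 1, H1FX-AS1, is an antisense RNA that the symbol rule also takes. Of the 73, 3 (HIST1H2APS1, HIST2H2BA and HIST2H2BC) are annotated as pseudogenes in GENCODE v29, although their symbols passed the rule. RNA came from RD cells, an established human line of fusion-negative rhabdomyosarcoma, a soft-tissue tumour with features of developing muscle. All the cells carried a hairpin that doxycycline switches on and that targets NT5E (CD73, a surface enzyme), as 1 of 2 constructs titled ish and ish2, and were kept with 10 ng/mL doxycycline (Dox, labelled as CD73 knockdown) or without it (labelled as control) for 96 h. There were 3 libraries in each of the 4 groups, 12 in all, and no group combined Dox with a hairpin of another target, so the effects of the drug and of the hairpin cannot be told apart. The labels do not say that the 3 libraries are separate cultures or that a construct is 1 clone, so the spread between them may be technical.

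Histones are the proteins around which DNA is wound: H2A, H2B, H3 and H4 form the nucleosome core, and H1, the linker histone, binds where DNA enters and leaves it. The cluster genes classically have no introns and are transcribed mainly while DNA is copied in S phase. Their mRNAs classically end in a short stem-loop instead of a poly(A) tail, so a library built from polyadenylated RNA holds little of them. Some annotated models differ: HIST1H2AC spans 26124145 to 26139116 on chromosome 6, while its longest transcript holds 1668 bases. Many replacement variants are transcribed through the whole cell cycle and give polyadenylated mRNAs, though H2AFX also holds the stem-loop motif. In differentiating cells many cluster genes can also give polyadenylated forms. The values below therefore describe the histone RNA that these mRNA libraries held, not all histone RNA of the cells.

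The stem-loops are shown because they are the feature that sets cluster mRNAs apart. A search of the GENCODE v29 transcripts of GRCh38 for the histone stem-loop motif on the transcribed strand found it in 32 of the 73 cluster genes and in 51 of 57133 genes in all (0.0893%). The 32 genes held 5 forms, printed 5′ to 3′ with the 4 bases of the loop in capitals, each named by a gene that holds it.
HIST2H2BE: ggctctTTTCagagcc
HIST1H2BC: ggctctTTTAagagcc
HIST1H4H: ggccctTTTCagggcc
HIST1H4I: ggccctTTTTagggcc
HIST1H2AG: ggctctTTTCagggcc
The first form was in 17 genes, the second and the third in 5 each, the fourth in 3 and the last in 2. In HIST2H2BE it lies on the minus strand of chromosome 1, from 149886188 to 149886203, and the annotated transcript runs on for 1729 bases past it. In HIST1H4H it lies on the minus strand of chromosome 6, from 26285131 to 26285146, with 1655 bases after it. Among replacement variants only H2AFX, the histone phosphorylated at DNA breaks, held the motif (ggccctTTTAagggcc, chromosome 11, 119094898 to 119094913, minus strand), with 1044 bases after it. Many models end at the coding sequence, such as that of HIST1H2BK with 381 bases, so no match there says only that these letters are not in the annotated transcript.

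Cluster genes of H2A and H2B often stand head to head and share the stretch between their starts. The promoters of 2 such pairs, of HIST1H2BK and of HIST1H3E are shown because the pairs moved in the same direction (HIST1H2AC and HIST1H2BC) or, in ish, in opposite directions (HIST2H2BE and HIST2H2AC), HIST1H2BK had the most reads and HIST1H3E the largest rise in ish. Each is the 250 bases before the start in RefSeq (GRCh38.p14), read 5′ to 3′ on the gene's strand. Capitals mark the octamer ATTTGCAT, CCAAT and TATAAA on either strand.
HIST1H2AC, chr6:26123922-26124171, plus strand: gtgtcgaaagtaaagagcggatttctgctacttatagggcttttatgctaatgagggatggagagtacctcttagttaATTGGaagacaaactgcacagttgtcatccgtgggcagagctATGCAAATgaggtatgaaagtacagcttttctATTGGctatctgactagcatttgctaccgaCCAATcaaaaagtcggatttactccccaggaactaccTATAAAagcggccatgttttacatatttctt
HIST2H2BE, chr1:149886683-149886932, minus strand: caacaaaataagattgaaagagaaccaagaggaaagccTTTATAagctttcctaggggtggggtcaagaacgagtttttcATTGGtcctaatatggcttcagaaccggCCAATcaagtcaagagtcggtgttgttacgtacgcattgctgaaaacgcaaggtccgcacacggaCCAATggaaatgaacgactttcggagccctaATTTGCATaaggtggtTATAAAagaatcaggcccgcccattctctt
HIST1H2BK, chr6:27146856-27147105, minus strand: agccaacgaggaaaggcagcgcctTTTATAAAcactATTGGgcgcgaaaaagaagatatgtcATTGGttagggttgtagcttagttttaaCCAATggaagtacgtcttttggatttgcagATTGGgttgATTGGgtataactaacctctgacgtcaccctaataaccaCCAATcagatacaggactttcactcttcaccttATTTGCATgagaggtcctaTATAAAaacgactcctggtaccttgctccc
HIST1H3E, chr6:26223928-26224177, plus strand: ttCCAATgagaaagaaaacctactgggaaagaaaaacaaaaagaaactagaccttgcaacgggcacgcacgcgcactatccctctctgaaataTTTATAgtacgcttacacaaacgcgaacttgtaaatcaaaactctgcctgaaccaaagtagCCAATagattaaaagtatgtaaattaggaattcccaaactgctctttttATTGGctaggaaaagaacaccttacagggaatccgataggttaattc
The HIST2H2BE window shares 235 bases with that of HIST2H2AC, and the HIST1H2AC window shares 245 with that of HIST1H2BC. Both shared stretches hold an octamer, so HIST2H2BE and HIST2H2AC, which moved in opposite directions in ish, have the same marked motifs between them. Of 64 cluster genes with a promoter in the table, the octamer was in 24 of 33 H2A and H2B genes and in 0 of 31 H1, H3 and H4 genes, against 1.63% of all 35116 windows. CCAAT was in 33 of 33 and 21 of 31 (32.0% of all windows) and TATAAA in 23 of 33 and 20 of 31 (10.7%). The 7 tested replacement variants with a promoter held no octamer, 5 held CCAAT and 3 held TATAAA. A match is a run of letters and was not tested as a binding site.

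The libraries held 26566603 to 32692207 reads in genes, and levels are given as CPM, reads scaled to library size with TMM factors, a share of each library. NT5E fell from 16.7 ± 1.61 to 1.57 ± 0.354 CPM (SD, n = 3) with Dox in ish and from 23.3 ± 1.03 to 14.6 ± 0.542 in ish2. Of 8 muscle markers of RD cells 7 were above 1 CPM in every group, with MYF5 the exception. Markers of other cell types were checked: the summed level of 5 epithelial genes, mostly KRT8 and KRT18, went from 31.9 to 33.7 CPM without Dox to 6.79 to 8.67 with it in ish and from 37.5 to 42.5 to 60.2 to 61.2 in ish2, and 5 endothelial genes from 9.44 to 10.0 to 2.09 to 2.92 and from 10.7 to 11.2 to 10.3 to 10.9. EPCAM, CDH1 and KRT5 and the endothelial PECAM1, CDH5 and KDR had too few reads to test. The part of these markers in the histone values was not tested, and in bulk RNA fewer cells of a type and less RNA per cell cannot be told apart.

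One library stood apart for the rare cluster genes. The summed level of the 46 cluster genes too low to test was 9.44 CPM in replicate 3 of ish without Dox, and 2.03 to 4.49 in the 11 others. That library was the highest of all 12 for 33 of the 64 cluster genes with any read, and 9.57% of its reads were listed as not uniquely aligned, against 7.15% to 8.22% elsewhere. For several genes below whose value moved without it, but not for all, both values are given.

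Cluster genes and replacement variants went opposite ways in their summed levels. With Dox in ish the 73 cluster genes together went from 44.6 ± 9.51 to 83.0 ± 0.798 CPM, and the 16 replacement variants from 2187 ± 34.4 to 1184 ± 5.33 CPM. In ish2 the cluster sum went from 45.8 ± 1.86 to 60.7 ± 4.18 CPM and the replacement sum from 2174 ± 32.0 to 1668 ± 4.31 CPM. No sum was tested. The replacement sum counts 5 of its 16 genes at 0, among them H3F3A. It leaves out H3F3AP4, a symbol of pseudogene form whose letters all occur in H3F3A. H3F3AP4 went from 22.3 to 25.9 CPM with Dox in ish and from 19.6 to 17.3 in ish2. Most of the rise of the cluster sum lay in the 5 genes with the most reads, chosen here from their values: HIST1H2BK, HIST2H2BE, HIST1H2BD, HIST1H1C and HIST1H2AC. Their sum went from 26.7 ± 1.71 to 66.2 ± 0.649 CPM in ish and from 31.5 ± 1.37 to 44.8 ± 2.38 in ish2. The ranking used all 12 libraries, with and without Dox, which favours genes that rise. Of the 5, HIST1H1C moved little in ish (log2 fold change 0.18), and HIST1H3E, outside the 5, rose there (2.88). The other 68 cluster genes went from 17.9 ± 8.0 to 16.8 ± 0.797 CPM and from 14.3 ± 0.494 to 15.9 ± 1.95, with 27.1 CPM in the library that stood apart and 13.1 and 13.5 in the other 2 of its group.

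**Figure D1:**
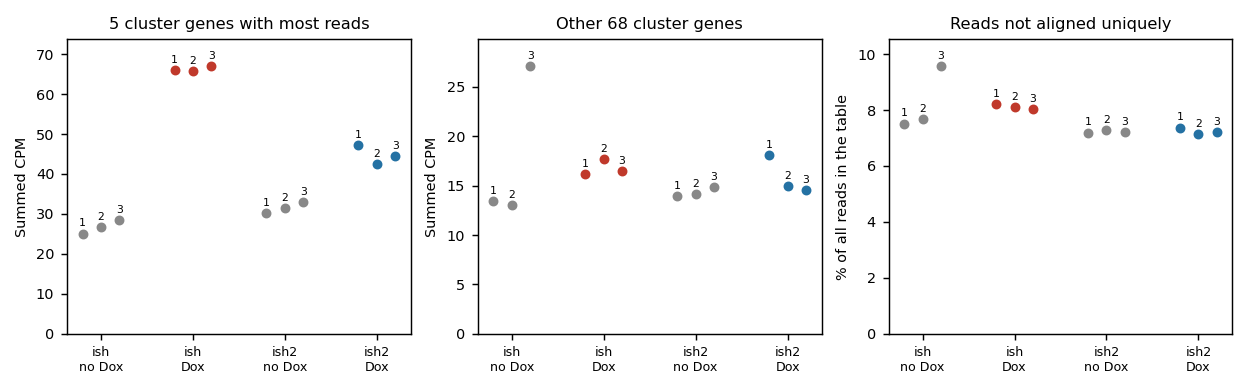
Each point is 1 library, numbered by replicate, in the 4 groups on the x axis. The left and middle panels give the summed CPM of the 5 cluster genes with most reads and of the other 68, and the right panel the percent of reads not aligned uniquely. In the middle and right panels replicate 3 of ish without Dox is the highest point, at 27.1 CPM and 9.57%.

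Of the 90 genes, 37 had enough reads to test: 27 cluster genes, 9 replacement variants and H1FX-AS1. The filter can keep a gene through 1 high group, so counts below cover the tested genes only. Reads were at 0 in every library for 9 cluster genes and 5 replacement variants, where a count of 0 allows up to 3 reads (0.0923 to 0.113 CPM), and for 6 of the 9 (HIST2H2AA3, HIST2H2AA4, HIST2H3A, HIST2H3C, HIST2H4A and HIST2H4B) nearly all 75-base stretches also occur in another gene. H3F3A, which encodes the replacement histone H3.3, was listed at 0 while H3F3AP4, left out by its symbol, had 7628 reads, and 100% of the 75-base stretches of H3F3AP4 occur in H3F3A. These reads cannot be assigned to either gene. Of the 75-base stretches of H3F3A itself only 10.99% occur in another gene, and why it was listed at 0 was not tested. In the following, higher and lower mean an edgeR quasi-likelihood adjusted p under 0.05 over all 15206 tested genes.

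With Dox in ish, 9 of the 27 tested cluster genes rose, 5 fell and 13 were not called, where 39.1% of all tested genes rose and 39.5% fell (78.6% called). With all libraries in the fit, the shares of cluster genes, 33.3% and 18.5%, were below these. Their median log2 fold change was then 0.02, against -0.01 for all tested genes. In ish2, 7 rose, 3 fell and 17 were not called, where 33.9% of all genes rose and 31.1% fell (65.0% called), and the median was 0.34 against 0.01. By core type, the 11 tested H2B genes held 5 of the 9 that rose and 2 of the 5 that fell in ish. In ish2 they held 4 of the 7 that rose and 3 of the 3 that fell. Among those 3 is HIST2H2BC, an annotated pseudogene with 38.9% of its 75-base stretches also in other genes. Higher in both constructs were 6 genes: HIST1H2AC, HIST1H2BC, HIST1H2BD, HIST1H2BK, HIST1H3E and HIST2H2BE. That is 22.2% of the tested cluster genes, where 13.8% of all tested genes were higher in both. Lower in both were HIST1H2BH and HIST1H2BL (7.41%, against 14.1%). No tested cluster gene was called in opposite directions, where 14.1% of all tested genes were lower in ish and higher in ish2 and 12% the reverse. Called in neither were 11 (40.7%), where 10.5% of all tested genes were. Apart from HIST3H2A (809 reads), these 11 had 110 to 238 reads over all 12 libraries, and the shares were not matched for read depth. Without replicate 3 of ish without Dox, 37.0% of all tested genes rose and 38.4% fell in ish. Of the 27 cluster genes 12 then rose, a share above that of all tested genes, and 3 fell. The median of the cluster genes in ish was then 0.54, the value of HIST1H2BG. HIST1H2AJ, HIST1H2BL and HIST1H3C then lost the call (adjusted p = 0.0521, 0.0506 and 0.718), HIST2H2BC gained it, and HIST1H2AE, HIST1H2BJ and HIST1H4E were called higher. The number that fell in ish was also 12 with no filter on low counts, 2 with a filter of 1 CPM in 3 libraries, 2 in a fit of the 6 ish libraries and 8 in DESeq2.

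**Figure D2:**
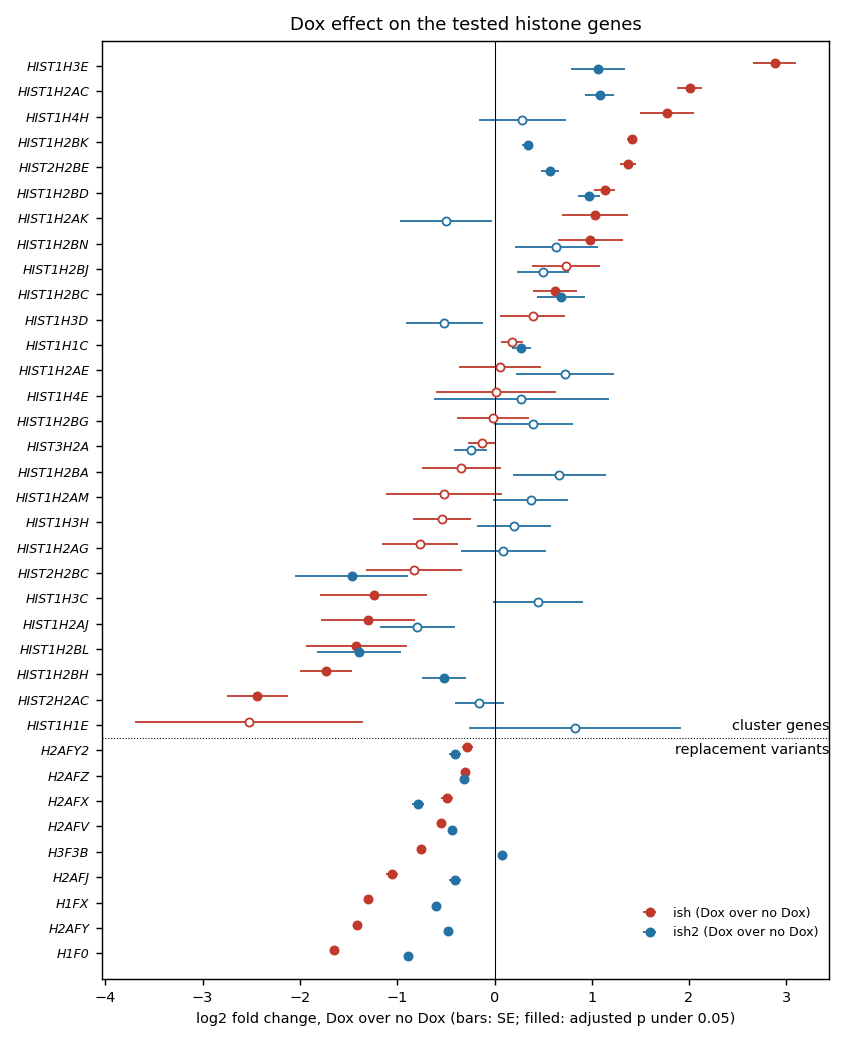
Points give the log2 fold change with Dox (x axis) of each of the 27 tested cluster genes and 9 tested replacement variants (y axis), red for ish and blue for ish2, with bars for the SE and filled points for an adjusted p under 0.05. The cluster genes run from 2.88 to -2.52 in ish, and all 9 replacement variants lie left of 0 there.

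Among linker histones of the clusters, HIST1H1C, which encodes H1.2, read 3.65, 3.35 and 4.19 CPM in the 3 ish libraries without Dox and 4.33, 4.45 and 3.94 with it, and the groups overlapped. In ish2 it read 5.27, 5.26 and 6.25 CPM without Dox and 7.06, 6.97 and 6.30 with it, with all Dox libraries above, and rose 1.21-fold (log2 fold change 0.27, SE 0.10, adjusted p = 0.0146). Leaving out any of 4 ish2 libraries ended that call (adjusted p = 0.0671 to 0.0882), as did DESeq2 (0.0808). HIST1H1E, which encodes H1.4, read 0.0658, 0.255 and 1.55 CPM without Dox in ish and 0.0656, 0.0665 and 0.185 with it, so the library that stood apart set the level of its group. Its log2 fold change of -2.52 (SE 1.17, adjusted p = 0.0767) was -0.58 without that library (adjusted p = 0.453). It was called lower in DESeq2 (adjusted p = 0.0230) and without replicate 1 (-3.04, adjusted p = 0.00549) or replicate 2 (-2.90, adjusted p = 0.0478) of the same group.

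Among H2A genes of the clusters, HIST1H2AC changed most clearly. HIST1H2AC (chromosome 6, 26124145 to 26139116, plus strand) encodes a core H2A, and none of its 75-base stretches occurs in another gene. It read 1.68, 1.82 and 2.11 CPM without Dox in ish and 7.45, 6.94 and 8.22 with it, then 1.91, 2.29 and 1.70 in ish2 without Dox and 5.04, 3.45 and 3.96 with it. Every Dox library lay above every library without Dox. HIST1H2AC rose 4.02-fold in ish (log2 fold change 2.01, SE 0.13, adjusted p = 1.95e-16) and 2.12-fold in ish2 (1.08, SE 0.15, adjusted p = 8.14e-08), and the ish2 effect was the smaller by 0.93 on the log2 scale (SE 0.21, adjusted p = 0.000161). HIST3H2A, an H2A gene of a small cluster on chromosome 1, read 2.39 to 2.87 CPM without Dox and 2.13 to 2.68 with it in ish, and 1.95 to 2.55 and 1.5 to 2.04 in ish2. Its groups overlapped in both constructs (log2 fold changes -0.13 and -0.25, adjusted p = 0.421 and 0.197).

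HIST2H2AC, a core H2A gene on chromosome 1 (149886975 to 149887364, plus strand), went the other way from HIST1H2AC. It read 1.19, 1.12 and 0.901 CPM without Dox in ish and 0.131, 0.166 and 0.277 with it, with all Dox libraries below. In ish2 it read 0.686, 0.788 and 1.01 CPM without Dox and 0.720, 0.927 and 0.607 with it, and the groups overlapped. The fall in ish was 5.41-fold (log2 fold change -2.44, SE 0.31, adjusted p = 1.01e-08), the value in ish2 -0.16 (SE 0.26, adjusted p = 0.610), and the difference between the constructs 2.28 (SE 0.42, adjusted p = 9.16e-06). The model of HIST2H2AC shares 23.7% of its 75-base stretches with HIST2H2AA3 and HIST2H2AA4, so its level is uncertain. The other H2A genes called in ish were low: HIST1H2AK rose from 0.128 to 0.342 CPM up to 0.459 to 0.665, and HIST1H2AJ fell from 0.230 to 0.342 CPM to 0.0615 to 0.197. HIST1H2AK overlaps HIST1H2BN on the other strand, and the sources do not state whether the counting used strand, so the 2 may share reads. HIST1H2AJ shares 82.4% of its stretches with HIST1H2AI and is uncertain.

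The H2B genes held the most reads. HIST1H2BK (chromosome 6, 27146418 to 27146798, minus strand) read 12.1, 12.5 and 13.3 CPM without Dox in ish and 33.1, 34.9 and 33.4 with it. In ish2 it read 14.8, 15.4 and 16.3 without Dox and 20.3, 19.0 and 19.7 with it. All Dox libraries lay above their controls in both constructs, by a wider gap in ish. HIST1H2BK rose 2.67-fold in ish (log2 fold change 1.42, SE 0.05, adjusted p = 8.57e-24) and 1.27-fold in ish2 (0.34, SE 0.06, adjusted p = 2.71e-06), a difference of -1.08 (SE 0.08, adjusted p = 8.37e-15). Of its 75-base stretches 50.5% occur in another gene, among them H2BFS, HIST1H2BN and HIST1H2BE, so its level is uncertain.

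HIST2H2BE (chromosome 1, 149884459 to 149886652, minus strand) encodes a core H2B. By the GENCODE starts, which differ from the RefSeq starts of the windows above, it lies 323 bases from HIST2H2AC on the other strand. It read 4.71, 5.68 and 4.97 CPM without Dox in ish and 13.1, 12.3 and 14.3 with it, then 4.91, 5.03 and 4.81 in ish2 without Dox and 7.16, 6.86 and 7.83 with it. No groups overlapped. HIST2H2BE rose 2.59-fold in ish (log2 fold change 1.37, SE 0.08, adjusted p = 1.70e-17) and 1.49-fold in ish2 (0.57, SE 0.10, adjusted p = 3.03e-06), and the difference was -0.80 (SE 0.13, adjusted p = 1.01e-06). In ish this gene and its neighbour HIST2H2AC thus moved apart across the stretch printed above, 1.37 against -2.44. Both genes were also tested in the pairs HIST1H2BG with HIST1H2AE (-0.02 and 0.05 in ish) and HIST1H2BJ with HIST1H2AG (0.74 and -0.76). None of these was called in either construct with all libraries in the fit. Without the library that stood apart the ish values were 0.54 and 1.09 for the first pair and 1.21 and -0.06 for the second. HIST1H2AE and HIST1H2BJ were then called higher (adjusted p = 0.0323 and 0.0104).

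HIST1H2BD (chromosome 6, 26158146 to 26171349, plus strand) rose in both constructs. It read 2.90, 3.32 and 3.91 CPM without Dox in ish and 7.94, 7.18 and 7.17 with it, then 3.36, 3.42 and 3.87 in ish2 without Dox and 7.74, 6.31 and 6.81 with it. All Dox libraries were above their controls. The rise was 2.19-fold in ish (log2 fold change 1.13, SE 0.11, adjusted p = 4.35e-12) and 1.96-fold in ish2 (0.97, SE 0.11, adjusted p = 1.20e-09), and a difference was not detected (-0.16, SE 0.16, adjusted p = 0.359). The annotated transcript that holds its stem-loop ends 39 bases after it.

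HIST1H2BC lies 219 bases from HIST1H2AC on the other strand by the GENCODE starts, not those of the RefSeq windows, and moved with it. It read 0.658, 0.862 and 1.49 CPM without Dox in ish and 1.41, 1.86 and 1.42 with it, and the groups overlapped through the library that stood apart. In ish2 it read 0.939, 0.939 and 0.687 without Dox and 1.47, 1.56 and 1.12 with it, all Dox libraries above. It rose 1.54-fold in ish (log2 fold change 0.62, SE 0.22, adjusted p = 0.0121) and 1.61-fold in ish2 (0.68, SE 0.25, adjusted p = 0.0166). Without the library that stood apart the ish value was 1.02 (adjusted p = 0.000298), but leaving out any of 3 other libraries ended the call in ish (adjusted p = 0.0620 to 0.115) and any of 3 in ish2 (0.0580 to 0.0810), as did DESeq2 in ish2 (0.0520).

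HIST1H2BH (chromosome 6, 26251651 to 26253710, plus strand) was the clearest H2B gene to fall. It read 1.22, 1.05 and 1.49 CPM without Dox in ish and 0.591, 0.332 and 0.215 with it, then 1.30, 1.35 and 1.37 in ish2 without Dox and 0.925, 0.816 and 1.05 with it. All Dox libraries lay below their controls. HIST1H2BH fell 3.31-fold in ish (log2 fold change -1.73, SE 0.27, adjusted p = 4.03e-07) and 1.43-fold in ish2 (-0.52, SE 0.22, adjusted p = 0.0431), with a difference of 1.21 (SE 0.36, adjusted p = 0.00291). The call in ish2 ended when any of 5 libraries of ish2 was left out (adjusted p = 0.0591 to 0.116) and in DESeq2 (0.138). HIST1H2BL, which had 83 reads in all, went from 0.128 to 0.362 CPM to 0.0328 to 0.154 in ish and from 0.397 to 0.451 to 0.111 to 0.192 in ish2.

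**Figure D3:**
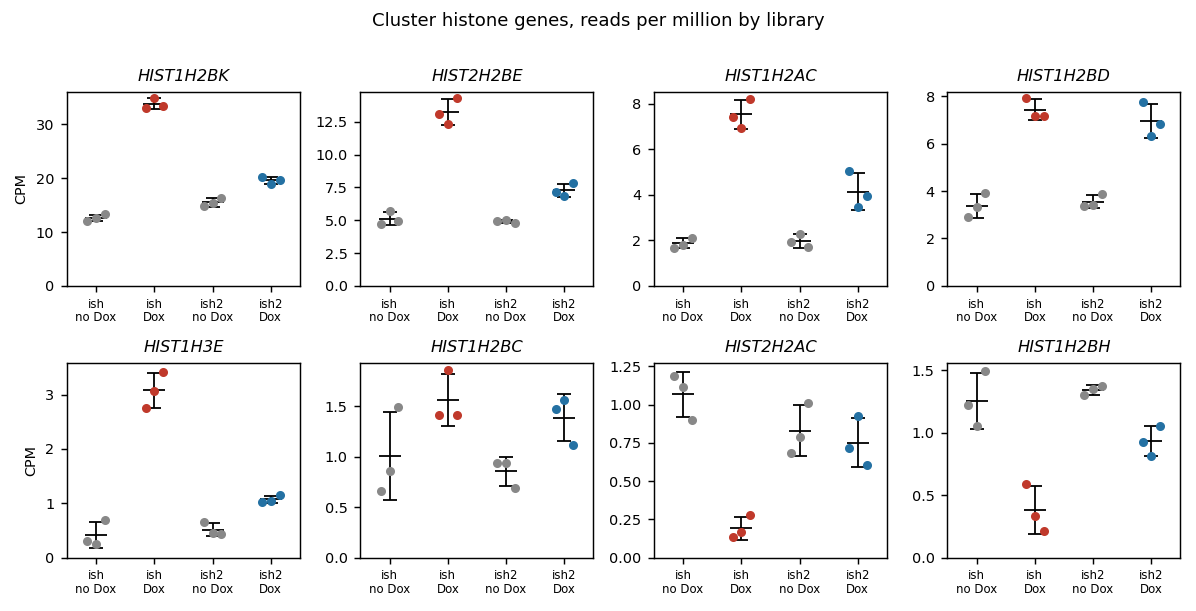
Each panel gives the CPM (y axis) of 1 cluster gene in the 12 libraries, by group (x axis), with the mean and SD. For HIST1H2BK, HIST2H2BE, HIST1H2AC, HIST1H2BD and HIST1H3E all Dox libraries lie above their controls in both constructs, whereas HIST2H2AC falls in ish and overlaps in ish2.

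Among H3 genes of the clusters, HIST1H3E had the largest rise of any tested cluster gene in ish. HIST1H3E (chromosome 6, 26224199 to 26227473, plus strand) encodes a core H3, and none of its 75-base stretches occurs elsewhere. It read 0.296, 0.255 and 0.683 CPM without Dox in ish and 2.76, 3.06 and 3.42 with it, then 0.650, 0.451 and 0.434 in ish2 without Dox and 1.03, 1.04 and 1.15 with it. All Dox libraries were above. The rise was 7.36-fold in ish (log2 fold change 2.88, SE 0.22, adjusted p = 3e-14; 3.46 without the library that stood apart) and 2.09-fold in ish2 (1.06, SE 0.28, adjusted p = 0.00101), a difference of -1.82 (SE 0.39, adjusted p = 9.05e-05; -2.41 without that library). HIST1H3H, another core H3 gene, read 0.559 to 0.724 CPM without Dox and 0.427 to 0.432 with it in ish, without overlap, but missed the threshold (log2 fold change -0.54, SE 0.30, adjusted p = 0.0951). HIST1H3C was called lower in ish (-1.24, adjusted p = 0.0420) only with the library that stood apart in the fit, and its value without that library was -0.25. In that library HIST1H3C read 0.714 CPM, against 0.132 and 0.223 in the others of its group.

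Among H4 genes, HIST1H4H (chromosome 6, 26277609 to 26285638, minus strand) read 0.230, 0.351 and 0.745 CPM without Dox in ish and 1.54, 1.86 and 1.23 with it, all above. In ish2 it read 0.325, 0.263 and 0.253 without Dox and 0.514, 0.260 and 0.256 with it, and the groups overlapped. HIST1H4H rose 3.42-fold in ish (log2 fold change 1.77, SE 0.28, adjusted p = 6.1e-07; 2.37 without the library that stood apart), and in ish2 the value was 0.29 (SE 0.45, adjusted p = 0.590). The difference of -1.49 (SE 0.55, adjusted p = 0.0156) was -2.10 without the library that stood apart (adjusted p = 0.00124) and missed the threshold without replicate 1 of ish2 without Dox (adjusted p = 0.0539). HIST1H4E, the other H4 gene tested, had a log2 fold change of 0.02 in ish (SE 0.62, adjusted p = 0.983) and of 1.35 without the library that stood apart (adjusted p = 0.0160), where it read 0.994 CPM against 0.128 and 0.230.

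What the genes share beyond the rule was described from their annotated transcripts. Of the 9 cluster genes higher in ish, 6 have a transcript with the stem-loop, 5 have one that runs on for over 100 bases past it and 7 have one with a poly(A) signal in its last 50 bases. Of the 18 other tested cluster genes these counts were 9, 7 and 7. Among the 5 that were lower in ish they were 2, 1 and 1, with HIST1H2BH the gene whose transcript runs 1640 bases past its stem-loop and has a signal. The models of HIST1H2AJ, HIST1H3C and HIST2H2AC, which fell, hold 387, 411 and 390 bases, and that of HIST1H2BK, which rose, 381. For these, no match says only that the letters are not in the annotated transcript. All 9 tested replacement variants have a poly(A) signal. Whether the reads of a gene came from the stretch past its stem-loop was not tested, since counts per gene hold no position.

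Of the 9 tested replacement variants, 9 fell in ish, where 39.5% of all tested genes fell, and 8 fell and 1 rose in ish2, where 31.1% fell and 33.9% rose. The median log2 fold change was -0.75 in ish and -0.44 in ish2, against -0.01 and 0.01 for all tested genes. The 8 genes lower in both constructs are 88.9% of those tested, where 14.1% of all tested genes were lower in both. The ish2 effect was higher than the ish effect in 6 of the 9 and lower in 1 (37.4% and 35.2% of all genes), and 2 were not called. For the cluster genes these counts were 3, 6 and 18 of 27. Without replicate 3 of ish without Dox all 9 were still called lower in ish.

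Both tested linker variants fell in both constructs. H1F0 (chromosome 22, 37805093 to 37807436, plus strand) encodes H1.0, a linker histone known to build up in cells that leave the cycle. It read 551, 545 and 546 CPM without Dox in ish and 177, 169 and 176 with it, then 525, 534 and 475 in ish2 without Dox and 266, 277 and 287 with it. All Dox libraries lay far below their controls. H1F0 fell 3.15-fold in ish (log2 fold change -1.65, SE 0.04, adjusted p = 7.76e-24) and 1.85-fold in ish2 (-0.89, SE 0.03, adjusted p = 1.41e-17), with a difference of 0.77 (SE 0.05, adjusted p = 2.05e-13).

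H1FX (chromosome 3, 129314771 to 129316277, minus strand) encodes the linker variant H1X. It read 232, 225 and 226 CPM without Dox in ish and 93.1, 90.3 and 94.4 with it, then 205, 204 and 194 in ish2 without Dox and 132, 132 and 134 with it. The groups did not overlap, and ish with Dox was the lowest. The fall was 2.46-fold in ish (log2 fold change -1.30, SE 0.03, adjusted p = 9.99e-31) and 1.52-fold in ish2 (-0.60, SE 0.03, adjusted p = 5.03e-20), a difference of 0.70 (SE 0.04, adjusted p = 9.69e-18). H1FX-AS1, annotated across H1FX on the other strand, read 1.89 to 2.90 CPM without Dox and 0.897 to 1.21 with it in ish, and 2.20 to 3.12 and 1.44 to 2.24 in ish2. It was called lower in both (-1.21 and -0.53, adjusted p = 2.71e-06 and 0.0135), and its reads cannot be told apart from those of H1FX if the counting did not use strand.

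Among H2A variants, H2AFY (chromosome 5, 135333900 to 135399914, minus strand) encodes macroH2A1, an H2A with a large extra domain that is found in silent chromatin. It read 130, 128 and 132 CPM without Dox in ish and 47.4, 49.1 and 49.4 with it, then 130, 129 and 137 in ish2 without Dox and 96.5, 95.7 and 91.8 with it. The controls of both constructs lay together and the Dox groups lay apart from them and from each other. H2AFY fell 2.67-fold in ish (log2 fold change -1.42, SE 0.03, adjusted p = 3.98e-30) and 1.39-fold in ish2 (-0.48, SE 0.03, adjusted p = 3.75e-16), with a difference of 0.94 (SE 0.04, adjusted p = 3.94e-20). Of its 75-base stretches 27.0% occur in another gene on the opposite strand, where C5orf66 and AC026691.1 overlap it, so its level is uncertain in part. H2AFY2, which encodes the related macroH2A2, fell less in ish, from 16.3 to 16.9 CPM to 13.2 to 14.5 (log2 fold change -0.28, SE 0.06, adjusted p = 3.89e-05). In ish2 it fell from 14.0 to 15.4 CPM to 11.1 to 11.3 (-0.40, SE 0.06, adjusted p = 8.6e-07), and a difference between the constructs was not detected (-0.12, SE 0.09, adjusted p = 0.199).

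H2AFZ and H2AFV encode the H2A.Z proteins, which mark promoters and other regulatory DNA. H2AFZ read 338, 306 and 323 CPM without Dox in ish and 258, 261 and 264 with it, then 343, 348 and 349 in ish2 without Dox and 282, 279 and 277 with it. Its falls were of like size, 1.23-fold in ish (log2 fold change -0.30, SE 0.03, adjusted p = 3.02e-12) and 1.24-fold in ish2 (-0.31, SE 0.03, adjusted p = 4.39e-12), and a difference was not detected (-0.01, SE 0.04, adjusted p = 0.889). H2AFV read 264 to 274 CPM without Dox and 180 to 189 with it in ish, and 260 to 271 and 191 to 199 in ish2, with no overlap. It fell 1.46-fold (log2 fold change -0.55, SE 0.03, adjusted p = 9.85e-20) and 1.36-fold (-0.44, SE 0.03, adjusted p = 2.92e-16). The difference of 0.11 (adjusted p = 0.0119) missed the threshold in DESeq2 (0.0608) and when any of 3 libraries was left out (0.0501 to 0.0520).

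H2AFX, the variant phosphorylated at DNA breaks and the one replacement gene with a stem-loop, read 111, 106 and 110 CPM without Dox in ish and 77.2, 78.0 and 77.7 with it. In ish2 it read 110, 115 and 131 without Dox and 72.7, 70.2 and 63.6 with it. It was the one replacement variant whose fall was called larger in ish2. H2AFX fell 1.40-fold in ish (log2 fold change -0.49, SE 0.06, adjusted p = 1.55e-05) and 1.73-fold in ish2 (-0.79, SE 0.06, adjusted p = 3.68e-07), a difference of -0.30 (SE 0.09, adjusted p = 0.0103). H2AFJ, an H2A variant gene of chromosome 12, fell from 24.3 to 26.5 CPM to 11.5 to 12.9 in ish (log2 fold change -1.05, SE 0.06, adjusted p = 4.84e-18). In ish2 it fell from 23.5 to 27.6 CPM to 19.0 to 19.4 (-0.41, SE 0.06, adjusted p = 1.14e-07), and the difference was 0.65 (SE 0.08, adjusted p = 1.36e-08).

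H3F3B (chromosome 17, 75776434 to 75785893, minus strand) encodes H3.3, the H3 placed in chromatin outside S phase. It read 546, 539 and 533 CPM without Dox in ish and 322, 323 and 316 with it, then 551, 577 and 550 in ish2 without Dox and 593, 590 and 589 with it. In ish all Dox libraries lay below their controls and in ish2 all lay above. H3F3B fell 1.68-fold in ish (log2 fold change -0.75, SE 0.02, adjusted p = 2.48e-25) and rose 1.06-fold in ish2 (0.08, SE 0.02, adjusted p = 0.00458), a difference of 0.83 (SE 0.03, adjusted p = 6.16e-22). The small rise in ish2 missed the threshold when any of 3 libraries of ish2 was left out (adjusted p = 0.0583 to 0.0669). H3F3AP4, whose letters are shared with H3F3A, read 21.0 to 23.2 CPM without Dox and 24.3 to 26.8 with it in ish, and 19.1 to 19.99 and 15.6 to 18.4 in ish2.

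**Figure D4:**
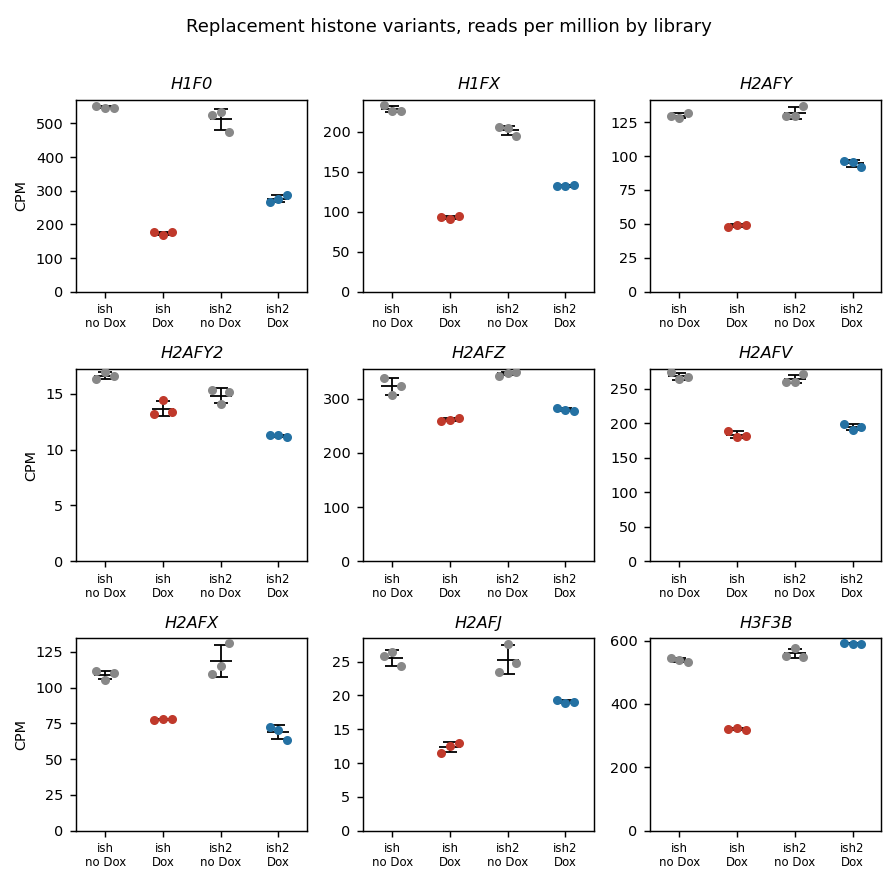
Each panel gives the CPM (y axis) of 1 of the 9 tested replacement variants in the 12 libraries, by group (x axis), with the mean and SD. The ish libraries with Dox lie below their controls in all 9 panels, and H3F3B is the one gene whose ish2 libraries with Dox lie above theirs.

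The genes that make, trim and carry histones moved in part. Of 24 genes of histone mRNA transcription, processing and decay, 4 rose and 12 fell in ish (39.1% and 39.5% of all tested genes) and 6 rose and 10 fell in ish2 (33.9% and 31.1%), with median log2 fold changes of -0.06 and -0.03, against -0.01 and 0.01 for all tested genes. SLBP, the protein that binds the stem-loop, fell little in ish (log2 fold change -0.08, SE 0.03, adjusted p = 0.0180) and more in ish2 (-0.41, SE 0.03, adjusted p = 3.74e-14), a difference of -0.34 (SE 0.04, adjusted p = 1.14e-08). NPAT, the activator of histone gene transcription, was not called in either (0.03, SE 0.05 and 0.03, SE 0.05; adjusted p = 0.572 and 0.580). LSM11, a protein of the U7 particle that trims histone mRNA, fell by 1.15 on the log2 scale in ish and less, by 0.17, in ish2. MIF4GD, which links SLBP to translation, fell by 1.16 in ish but rose by 0.34 in ish2, whereas CASP8AP2, a partner of NPAT also called FLASH, fell by 0.40 and by 0.46.

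Of 28 histone chaperones and exchange factors, 9 rose and 16 fell in ish (39.1% and 39.5% of all tested genes) and 2 rose and 18 fell in ish2 (33.9% and 31.1%), with medians of -0.13 and -0.15 (-0.01 and 0.01 for all). ANP32E, which removes H2A.Z from chromatin, fell by 1.43 in ish, and in ish2 its value was -0.04 (SE 0.03, adjusted p = 0.168), a difference of 1.39 (SE 0.04, adjusted p = 3.76e-27). HJURP, the chaperone of the centromeric H3 variant CENPA, fell by 1.15 and 0.75, and CENPA itself, which the symbol rule leaves out, fell by 1.39 and 0.52. ASF1B, an H3 and H4 chaperone of dividing cells, fell by 0.81 and 0.27, and RBBP4, a subunit of the assembly factor CAF-1, rose by 0.30 in ish and fell by 0.35 in ish2.

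Genes of DNA replication and S phase mostly fell in both constructs, in which 6 cluster genes rose. Of 38 such genes, 2 rose and 33 fell in ish (39.1% and 39.5% of all tested genes) and 1 rose and 35 fell in ish2 (33.9% and 31.1%), with medians of -0.36 and -0.46 (-0.01 and 0.01 for all). CDT1, a factor that loads the replicative helicase, fell by 0.94 in ish and 0.95 in ish2, GINS2, a subunit of that helicase, by 1.37 and 0.46, and RRM2, a subunit of ribonucleotide reductase, by 0.86 and 0.89. E2F2, an activator of S-phase genes, rose by 0.20 in ish and fell by 1.32 in ish2. The part of these genes in the histone values was not tested.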

How the data were processed

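RNA of 12 RD libraries was measured as raw counts per gene symbol, deposited by the authors as whole numbers without normalization. The submitters' processing notes list GRCh38, the trimmer Trim Galore 0.6.4, the aligner STAR 2.7.3a, and featureCounts with Subread 1.6.3. The notes and labels do not state the gene annotation, the strand setting or how reads of several genes were treated, which bears on near-identical histone genes. The header name Sh1 was read as the construct ish and Sh2 as ish2. Rows for unassigned reads were kept out of fits: reads listed as without a feature were 10.8% to 12.8% of a library, ambiguous 2.08% to 2.65% and not uniquely aligned 7.15% to 9.57%.

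The filter filterByExpr kept 15206 genes. They were scaled by TMM and fitted as 4 group means with edgeR 4.0.16 (robust glmQLFit, glmQLFTest, Benjamini-Hochberg over all tested genes, threshold 0.05; R 4.3.3). SE is the absolute log2 fold change over the square root of F, an approximation. The same fit was also run on simulated counts with few changed genes. Most tested genes were called in these data, so that run cannot check their scaling. Replicates differed by more than sampling noise (chi-square over its degrees of freedom 1.34 to 4.22). Alternatives were other scalings, filters, DESeq2 1.42.0, 6-library fits, a replicate block and leaving out each library. Floors of 3 reads cover counting error only.

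Named genes were NT5E, tested replacement and linker genes, up to 6 core cluster genes per direction and contrast by p among those of at least 1 CPM in 1 group, the 2 of each core type with most reads, and per list up to 5 by p. HIST1H2AK, HIST1H2AJ, HIST1H2BL, HIST1H3C and the other names outside this rule were chosen after their values were seen. The members and lists were chosen with earlier results of these data known. Stem-loops, overlaps and positions come from GENCODE v29, promoters from RefSeq. A promoter window was matched for 64 of 73 cluster genes. The result of 1 further marker list is not reported here.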

Additional observations from a re-analysis of the deposited data

Results flagged for a closer look

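The effect of Dox differed between the constructs by the test of the difference itself (ish2 effect minus ish effect, log2, edgeR adjusted p under 0.05) for the 14 histone genes of the naming rule that follow. Of the 27 tested cluster genes the ish2 effect was called higher in 3 and lower in 6, and of the 9 tested replacement variants in 6 and 1. Of all tested genes 72.6% passed that test. The constructs also differ in how far NT5E fell, and the cause of the differences was not tested.

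Among replacement variants the ish2 effect was the higher for H2AFY (0.94), H3F3B (0.83), H1F0 (0.77), H1FX (0.70), H2AFJ (0.65) and H2AFV (0.11), and the lower for H2AFX (-0.30). For H3F3B all 3 Dox libraries lay below their controls in ish and above them in ish2. Among cluster genes the ish2 effect was the lower, with a smaller rise, for HIST1H3E (-1.82), HIST1H4H (-1.49), HIST1H2BK (-1.08), HIST1H2AC (-0.93) and HIST2H2BE (-0.80), and the higher, with a smaller fall or none detected, for HIST2H2AC (2.28) and HIST1H2BH (1.21). The difference was also called for the low genes HIST1H2AK (-1.53) and HIST1H3C (1.69, a call lost without replicate 3 of ish without Dox) and for H1FX-AS1 (0.68).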

How the results depend on the processing

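The number of cluster genes that fell was the least stable. In ish it was 5, against 12 with no filter on low counts, 2 with a filter of 1 CPM in 3 libraries (HIST2H2AC and HIST1H2BH), 2 with only the 6 libraries of the construct, 8 in DESeq2 and 3 to 8 with 1 library left out. In ish2 it was 3, against 1 with the 1 CPM filter, 1 in DESeq2 and 1 to 3 with 1 library left out. The number for which the ish2 effect was the higher was 3, against 9 with no filter, 6 in DESeq2, 2 to 6 with 1 library left out, and 5 with no filter and without replicate 3 of ish without Dox, an alternative chosen after seeing the data. The number that rose in ish, 9, was 6 to 12 with 1 library left out and 7 to 13 otherwise. The replacement count that rose was 1 in place of 0 in ish with no filter, and 0 to 1 in ish2 with 1 library left out. The log2 ratio of the replacement sums was -0.89 in ish (-0.91 with library totals) and -0.38 in ish2 (-0.40 to -0.39 with 1 library left out). The causes were not tested, apart from the filters, which change how many genes are tested.

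Signs turned for uncalled values. HIST1H4E in ish was -0.0083 with library totals and -0.43 to 1.35 with 1 library left out, and the difference for H2AFZ was 0.015 with library totals and -0.047 to 0.025 with 1 left out. With no filter and without replicate 3 of ish without Dox, the differences were -0.34 for HIST1H2BC and -1.07 for HIST1H4E. With 1 library left out the ranges were -0.13 to 0.46 for HIST1H4H, -0.34 to 0.00058 for HIST2H2AC, -0.22 to 0.41 for HIST1H3H and -0.20 to 1.14 for HIST1H4E in ish2, and, for the differences, -0.0059 to 0.17 for HIST1H1C, -0.20 to 0.013 for HIST3H2A, -0.35 to 0.28 for HIST1H2BC and -1.08 to 1.14 for HIST1H4E.

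The replicate numbers did not pair the libraries (residual correlations of like numbers -0.08 to 0.04, with 4 of 12 libraries best with their own number). With the replicate block, 9 cluster genes rose and 7 fell in ish, and HIST1H1E was called there (-2.50, adjusted p = 0.0321) and in the difference (3.30, adjusted p = 0.0422). Depth limits the rare cluster genes: 37 of the 46 that could not be tested had 1 to 80 reads over all 12 libraries.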
